A study of Mus musculus with 15 samples.

Results

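SAM68 (Khdrbs1) was mapped on RNA with iCLIP2, in stem cells of the E14 mouse line and their derivatives, and the sites described here are those of the day 10 list that lie in genes with no site on day 0 and none on day 3. There were 10205 such sites in 1603 genes, out of 74287 sites in 6345 genes on day 10. The genes were chosen by their site counts, as the authors assigned sites to genes: a gene belonged when its Ensembl ID was present in the day 10 list and absent from both earlier lists. The rule used the lists themselves, so the absence of sites on day 0 and day 3 is a definition and not a result.

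The samples were E14 cells grown as undifferentiated stem cells with LIF and inhibitors of GSK and MEK (day 0), embryoid bodies from hanging drops (day 3) and embryoid bodies grown in spheroid plates (day 10), with 5 libraries per day and no genetic change between the groups. An embryoid body is a floating aggregate of differentiating stem cells, and it holds many cell types at once. All cells were crosslinked with ultraviolet light, and bodies were taken apart into single cells before crosslinking. The libraries of a day were combined in 1 list of sites, each site 5 nt wide, so there is no value per library, no spread between replicates and no test between days. Day and culture format cannot be told apart.

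SAM68 belongs to the STAR family of RNA-binding proteins, and it is known to prefer short motifs rich in U and A, such as UAAA. It acts mainly in the nucleus, where it takes part in alternative splicing and in the choice of polyadenylation sites, and it often binds introns of long genes. iCLIP2 reads the crosslinked nucleotide from the position where reverse transcription stops. A gene can be without a site because it is not transcribed, because its RNA is too scarce to give a called site, or because SAM68 is not on it. These cannot be told apart here, and neither can fewer cells of a type and less RNA per cell.

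Sequence could be read only for the 16 member sites that fall inside the short start regions that RefSeq sequence (GRCm38.p6) was at hand for, in 11 genes. Of these sites 6 had the motif TAAA or the motif TTAA or the motif TTTA within 20 nt (T stands for U, the transcribed strand alone was searched, and motifs can overlap), 37.5% (15.2% to 64.6%). Of 131 sites of other genes in such regions 23 did, 17.6% (11.5% to 25.2%), and of all stretches of 41 nt cut from the start regions 25.4%. The intervals of the 2 groups of sites overlap at this distance. Within 50 nt they do not: 81.2% of member sites (54.4% to 95.95%) had a motif, against 41.2% of the other sites (32.7% to 50.1%) and 50.2% of all stretches of that length. Median A or T within 50 nt was 47.7% at member sites and 40.6% at the other sites, and some member windows overlap. The part of either in this difference was not tested. These 16 sites lie in 11 genes, and start regions are a small and unusual part of the bound RNA. Examples follow, read 5′ to 3′ with the 5 nt of the site in capitals, chosen after their values were seen, because the gene holds several such sites or, for Vim, because the site lies at the start itself.
Epb41l3, chr17:69159340-69159364, plus strand: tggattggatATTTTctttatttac
Epb41l3, chr17:69159371-69159395, plus strand: aatggttgccCCTTTccaggtctcc
9030622O22Rik, chr2:148031964-148031988, minus strand: ataaaagcaaTATTTtatgtttaga
9030622O22Rik, chr2:148032061-148032085, minus strand: tatatatataTATATgaatgatgag
Igf2, chr7:142658762-142658786, minus strand: tatacgctttCTGTTtctctccgtg
Igf2, chr7:142657469-142657493, minus strand: actgaccagtTCGCAaactggacat
Igf2, chr7:142657536-142657560, minus strand: gggagggggtGGGGGgtagggtgga
Vim, chr2:13574297-13574321, plus strand: ggcgttgtccAGTCCtctgccactc
The first Epb41l3 site, the first 9030622O22Rik site and the first Igf2 site have a motif within 20 nt, and A or T made up 82.9%, 85.4% and 57.5% of the bases there. The second 9030622O22Rik site lies in a run of alternating T and A with no such motif. The third Igf2 site lies in a run of G, with 24.4% A or T, and the Vim site, in the gene of an intermediate filament protein, is centred 2 nt before the annotated start.

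The 1603 genes made up 25.3% of the 6345 genes of the day 10 list (exact binomial 95% interval 24.2% to 26.4%), and their sites made up 13.7% of the day 10 sites (13.5% to 13.99%). These shares follow from the rule and nothing is read from them. All intervals here are of this kind, cover counting error alone, and treat sites as independent, which sites of 1 gene are not. The day 0 list held 29740 sites and the day 3 list 28266. At an equal share of the list, 1 day 10 site therefore corresponds to 0.400 sites on day 0 and 0.381 on day 3. Single-site members lie at the edge of the rule, and 738 of the 1603 genes had a single day 10 site. On the other side of the edge, 784 genes of the day 10 list had exactly 1 site over both earlier lists, with a median of 2 day 10 sites. Among them, Ghr, the growth hormone receptor, had 0 sites on day 0, 1 on day 3 and 143 on day 10. In the same order of days, Cdh11, a mesenchymal cadherin, held 1, 0 and 96, Col4a2, a basement membrane collagen, 0, 1 and 76, Meis1, a homeobox factor, 1, 0 and 75, and Zmiz1, a transcriptional coregulator, 1, 0 and 67.

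Sites were concentrated in few genes. The median gene bound on day 10 only held 2 sites (quartiles 1 and 4), against 5 (2 and 14) in the 4742 other genes of the day 10 list. Yet 15 genes with 100 sites or more held 3200 sites, 31.4% of the set, where 67 such genes held 17.99% of the sites of the other genes. As few as 51 genes held 50% of the sites. At least 20 sites were found in 80 genes, at least 10 in 157 and at least 5 in 329. Site number is tied to the rule, since a gene with few sites is more easily absent from the shorter earlier lists. The differences from other genes in site number are therefore descriptions. Genes bound on a single earlier day come from shorter lists, so their site numbers are not on the same scale. The 498 genes bound on day 3 only had a median of 1 and a maximum of 62, and the 650 genes bound on day 0 only a median of 1 and a maximum of 82.

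**Figure D1:**
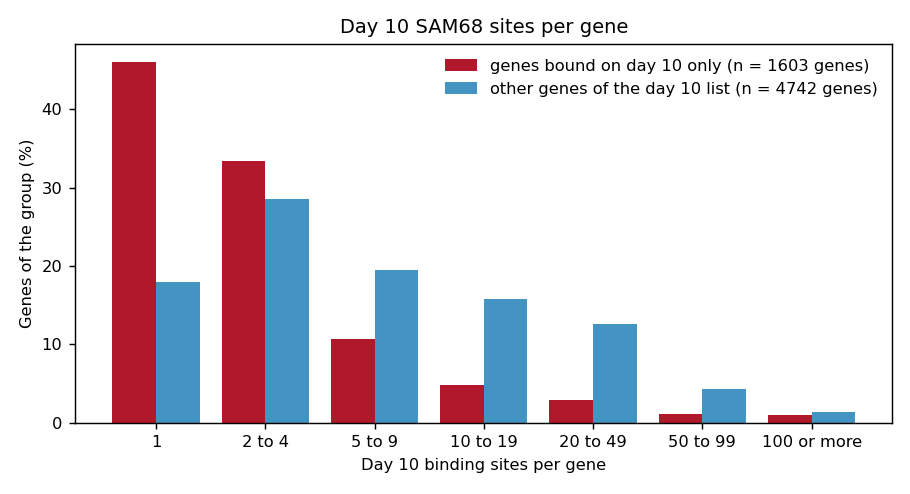
Share of genes (vertical axis, %) by number of day 10 sites per gene (horizontal axis), for the 1603 genes bound on day 10 only (red) and the 4742 other genes of the day 10 list (blue). Single-site genes were 46.0% of the first group and 17.9% of the second.

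The gene with most sites was Slc8a1, the sodium-calcium exchanger of heart muscle, with 439 sites on day 10. Its gene lies on the minus strand of chromosome 17 (81373105 to 81738387, GRCm38), spans 365 kb, and held 120 sites per 100 kb. The sites began 90.5 kb behind the gene start and ran over 255 kb, with a longest stretch free of sites of 12.4 kb. With the span cut into 3 equal parts, the 5′ part held 74 sites, the middle part 268 and the 3′ part 97. The median distance from a site to the nearest other site was 189 nt, and no site lay within 5 kb of the gene end.

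Genes of calcium handling and ion channels formed one of the gene lists, and 10 of its 13 genes with a day 10 site were bound on day 10 only. Over all 6052 genes with both a symbol and a day 10 site, the corresponding share was 25.0%, or 1514 genes with a median of 2 sites. The count of each list below is to be read beside this 25.0%. These 10 genes held 603 sites, with a median of 12.5, and 6 of them had at least 5. Ryr2, the calcium release channel of the sarcoplasmic reticulum, held 87 sites spread over 99.6% of its 554 kb span, with 36, 34 and 17 in the 5′, middle and 3′ parts. Cacnb2, an auxiliary beta subunit of the voltage-gated type of calcium channel, held 30, none of them in the 3′ part of the gene. Cacna1c, the pore subunit of the cardiac L-type channel, held 18 over 610 kb, a density of 2.95 per 100 kb. All lists here were drawn up with earlier results of these data known, so their counts are descriptions and support nothing by themselves.

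Of cardiac and mesodermal transcription factors, 17 of 25 with a day 10 site were bound on day 10 only. This is 68% (46.5% to 85.05%), against 25.0% of all named genes. The 17 held 511 of the list's 1246 day 10 sites, with a median of 3. Outside the set were Tead1 with 190 day 10 sites, Meis2 with 186 and Gata4 with 111. Nfia, a nuclear factor I protein, held 212, and Zfpm2, which partners GATA proteins in the developing heart, held 144. Tbx20, a T-box factor of the heart, held 46 in a gene of 53.5 kb, 86.0 per 100 kb, with 18, 14 and 14 sites in the 3 parts. Gata6, a zinc finger factor of heart and endoderm, held 33 in 33.1 kb, 99.6 per 100 kb. Single sites were found in 6 of the 17, among them Hand1, Isl1 and Gata5. A single site per gene is a value at the edge of the rule.

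The sarcomere and Z-disc list had 20 genes with a day 10 site, and 16 of these were bound on day 10 only, with 163 sites and a median of 4.5. Palld, an actin-organising protein, held 62 sites, 44 of them in the 3′ part of its 391 kb span. Ttn, the giant elastic protein of the sarcomere, held 35, of which 5 lay within 1 kb of the gene end, and one stretch of 114 kb had none. Synpo2, an actin-bundling protein of the Z-disc, held 11 and Acta2, smooth muscle actin, 9. Myh6 and Tnnt2, which the naming rule did not pick, are short and held few sites, though per length they were denser than Palld and Ttn. A member has at least 1 site by definition, which by itself makes density high in a short gene. Tnni1 and Cryab held 1 site each, and Actc1 and Tpm2 held 2. Myh6, the alpha myosin heavy chain of the heart, held 6 in 26.1 kb, or 23.0 per 100 kb, and Tnnt2, cardiac troponin T, held 3 in 16.0 kb, or 18.8 per 100 kb. Density was 59.0 per 100 kb in Acta2, 15.8 in Palld and 12.6 in Ttn.

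Matrix and mesenchymal genes had 17 of 25 members bound on day 10 only (205 sites, median 5). Ptn, the heparin-binding growth factor pleiotrophin, held 77 sites over 98.3% of a 95.3 kb gene. Fbn2, a fibrillin of elastic microfibrils, held 25, Postn, the matricellular protein periostin, 22 and Col3a1, a fibrillar collagen, 18. Of the 22 Postn sites, 9 lay within 5 kb of the gene end. Basement membrane and endoderm genes had 12 of 25 members in the set (80 sites, median 3.5). Apob, the structural apolipoprotein made by visceral endoderm and liver, held 29 sites and none in the 5′ part of the gene. Col4a5, a basement membrane collagen, held 17, Rbp4, the plasma carrier of retinol, 10 and Krt18, a keratin of simple epithelia, 5. The endoderm genes with most day 10 sites were outside the set, since Gpc3 had 25 sites on day 3, and Col4a1 and Dab2 had 2 and 3.

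**Figure D2:**
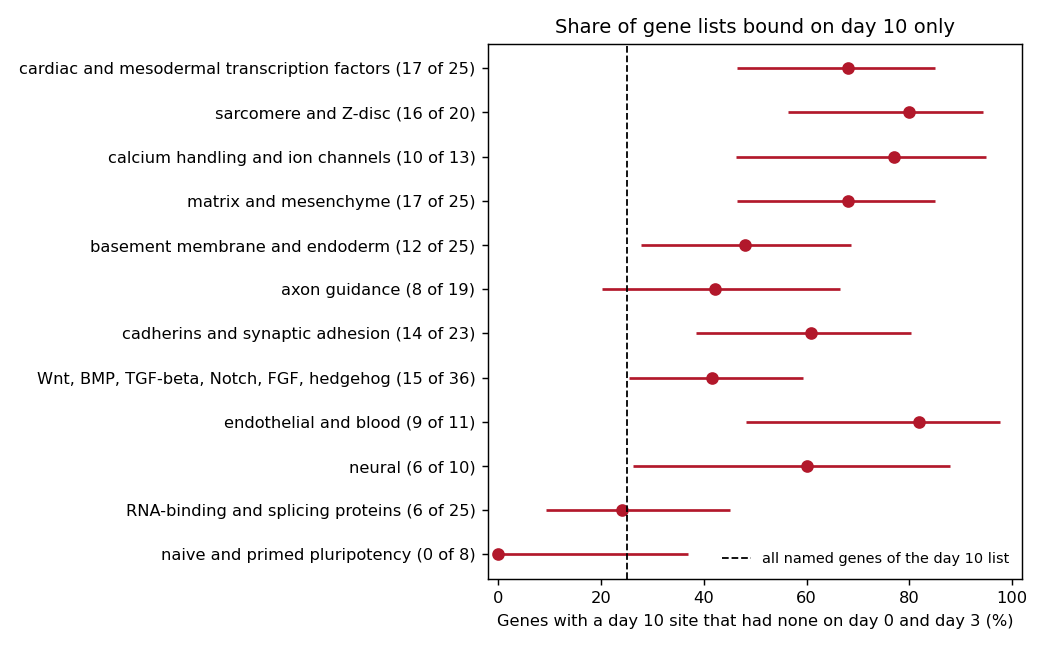
Percent of the genes of 12 lists with a day 10 site that had no site on day 0 and day 3 (horizontal axis), with exact binomial 95% intervals (bars) and counts beside each list name. The dashed line marks 25.0%, the share over all named genes. The lists run between 0% for pluripotency genes and 81.8% for endothelial and blood genes. All 8 pluripotency genes had a site on an earlier day, so the rule left them out.

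Axon guidance genes bound on day 10 only held more sites than those of any other list. Of 19 with a day 10 site, 8 were bound on day 10 only. This is 42.1% (20.25% to 66.5%), an interval that includes the 25.0% of all named genes. These 8 held 705 of the list's 1268 day 10 sites, with a median of 28 and none with a single site. Most of the 705 lay in the first 3 genes named next. Efna5 with 211 day 10 sites and Slit3 with 116 were outside the set. Unc5c, a receptor for netrins, held 291, of which 219 lay in the 5′ part of the gene. Nrp1, a co-receptor for semaphorins and VEGF, held 190 in 147 kb, at 129 per 100 kb and spread over the 3 parts as 75, 62 and 53. Robo2, a receptor for Slit proteins, held 149, all in the 3′ part of a gene of 1555 kb. Plxna4, a semaphorin receptor, held 37, of which 21 were in the 5′ part.

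Cadherins, protocadherins and synaptic adhesion genes had 14 of 23 in the set, with 492 sites and a median of 8.5. Pcdh7, a protocadherin, held 267 over 96.7% of its span, and Cdh2, N-cadherin, which joins heart muscle and neural cells, held 69. Cdh6, another classical cadherin, held 52, with 36 of them in the 5′ part. Dscam, a homophilic adhesion protein of the immunoglobulin family, held 39. Of the neural list, 6 of 10 were in the set (133 sites, median 19.5), with Sox5 at 53 sites, Sox6 at 39 and Zeb2 at 37. All 3 are transcription factors that act also outside the nervous system. Foxp2, a forkhead factor, held 2.

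Genes of signalling pathways (hedgehog, FGF, Notch, TGF-beta, BMP and Wnt) had 15 of 36 in the set, with 173 sites and a median of 4. Maml2, a Notch coactivator, held 45, Smad6, an inhibitor of BMP signalling, 36, and Tgfbr3, a TGF-beta co-receptor, 30. Bmp5, a BMP ligand, held 15, 10 of them in the 5′ part. Endothelial and blood genes had 9 of 11 in the set, but with few sites (59 in all, median 1, and 6 with a single site). Flt1, a VEGF receptor, held 29, Ptprm, a receptor phosphatase, 15, Tek, the angiopoietin receptor, 9 and Cdh5, the cadherin of endothelial junctions, 1.

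Of RNA-binding and splicing proteins, 6 of 25 were in the set, 24.0% against 25.0% of all named genes, with 401 sites and a median of 16.5. Rbms3, a single-strand RNA-binding protein, held 310, Celf2, a splicing regulator, 46, Rbm20, which controls titin splicing in the heart, 25 and Cpeb2, a regulator of translation, 8. None of the 8 pluripotency genes with a day 10 site was in the set. Each had a site on day 0 or day 3, and the rule leaves out any such gene. Nothing is read from this 0, whose interval (0% to 36.9%) includes 25.0%.

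With at least 5 sites required, 324 of 2803 named genes were in the set, which is 11.6%. Under the same limit the lists stood at 50% for cardiac and mesodermal factors (8 of 16), 72.7% for sarcomere genes (8 of 11), 66.7% for calcium handling (6 of 9), and 60% for matrix genes (9 of 15). Axon guidance stood at 41.2% (7 of 17), adhesion genes at 53.3% (8 of 15) and RNA-binding proteins at 23.8% (5 of 21). Basement membrane and endoderm genes stood at 28.6% (4 of 14) and signalling genes at 28% (7 of 25). Endothelial and neural genes left few to count, 3 of 4 and 3 of 6, and pluripotency genes 0 of 5.

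The other genes among the 20 with most sites lay outside the lists described above. Arhgap6, a GTPase-activating protein, held 298 sites on the plus strand of chromosome X, with 151, 131 and 16 in the 3 parts. Tmem108, a transmembrane protein, held 230 sites, Tanc2, a postsynaptic scaffold protein, 145, and Alcam, an adhesion molecule of the immunoglobulin family, 142. Prkg1, the cGMP-dependent protein kinase of smooth muscle, held 140 over 1201 kb, with a longest free stretch of 206 kb. Pde3a, a phosphodiesterase of heart and smooth muscle that breaks down cyclic nucleotides, held 107. Prdm6, a transcriptional repressor of smooth muscle, held 136 in 112 kb, at 121 per 100 kb. Prickle1, a component of planar cell polarity, held 85, and Epb41l3, a protein of the membrane skeleton, 79. Usp29, a deubiquitinase gene next to the imprinted gene Peg3, held 81, of which 72 lay in the 5′ part of its span.

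Among members with at least 10 sites, 4 of the 5 densest genes were short, as a floor on site number favours short genes in density, and the fifth was Nrp1 at 129 per 100 kb in 147 kb. Spink1, a trypsin inhibitor, held 20 sites in 9.17 kb, or 218 per 100 kb. Dnm3os, a non-coding RNA that carries miR-199a and miR-214 and lies opposite Dnm3, held 17 in 7.93 kb, or 214 per 100 kb. Igf2, the imprinted insulin-like growth factor, held 24 in 16.0 kb, and Igfbp5, which binds insulin-like growth factors, 22 in 16.8 kb. In Igf2, 17 of 24 sites were within 5 kb of the gene end, and in Igfbp5 14 of 22. The median distance to the nearest other site was 56.5 nt in Igf2, against 189 nt in Slc8a1. The median member that is protein-coding and named held 6.94 sites per 100 kb, and the median of other genes of the day 10 list was 14.9. With 5 to 19 sites the medians were 10.3 and 20.3. Density draws on site number, which is tied to the rule, so these differences are descriptions.

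Genes of classes other than protein-coding were 124 of the 1603 (7.74%, 6.47% to 9.15%), against 242 of 4742 other genes (5.10%, 4.49% to 5.77%). These 124 include pseudogenes, among them 12 processed pseudogenes, and they held 419 sites, 4.11% of the set. Antisense RNAs numbered 27 (1.68%, 1.11% to 2.44%), against 21 among other genes (0.443%, 0.274% to 0.676%), lincRNAs 29 and processed transcripts 28. The lincRNA 9030622O22Rik on chromosome 2 held 80 sites, close to Usp29 with 81 and Epb41l3 with 79. Mir100hg, the host of miR-100 and miR-125b, held 30 sites, of which 27 lay in the 3′ part.

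At the locus of Hand2, a transcription factor of the heart, 3 adjacent genes were in the set. Hand2 was singled out after its values were seen, because both its non-coding neighbours were named by the rule. Hand2os1, transcribed away from Hand2, held 9 sites. Hdnr, the next gene behind Hand2 on the same strand, held 17, and Hand2 itself held 5, with 4 of them within 1 kb of its end. On chromosome 8, Hand2os1 spans 57304261 to 57320859, Hdnr 57332435 to 57354580 and Hand2 57320983 to 57324517.

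A site in the miRNA gene Mir1197, of the imprinted Dlk1-Dio3 region, lay in the hairpin on chromosome 12 at position 109712387, between the 2 mature arms. The arms are shown because the site touches neither; capitals mark the seed, bases 2 to 8.
miR-1197-5p: cGGUUGACcaugguguguacg
miR-1197-3p: uAGGACACauggucuacuucu
The other miRNA gene of the set, Mir6236, also held 1 site.

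Member genes were not longer than other bound genes at the median, but those with 20 sites or more were. The 1442 named protein-coding members had a median span of 31.8 kb, against 43.4 kb for 4389 other genes. The 77 members with 20 sites or more had a median of 223 kb, and 81.8% spanned 100 kb or more. Their counterparts among other genes, 838 in number, had a median of 97.7 kb, and 48.3% spanned 100 kb or more. At 20 sites or more, members held 23.9 sites per 100 kb at the median and other genes 42.05. Under a floor of 20 sites, a gene of lower density passes only if it is longer, so span and density there are not separate results. Across genes, the rank correlation of span and site number was 0.39 in members and 0.43 in other genes, where the points share 1 list and genes are not replicates.

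Along the gene, pooled shares of members and other genes were close, but both moved with the number of sites per gene. The first 50% of the span held 53.0% of 9699 member sites (52.1% to 54.0%) and 52.0% of 61467 other sites (51.6% to 52.4%). In genes with 5 to 19 sites it held 52.8% (50.6% to 55.0%) of member sites and 47.7% (47.0% to 48.5%) of other sites. With 20 sites or more it held 57.5% (56.2% to 58.8%) and 54.5% (54.1% to 55.0%). With fewer sites the order was the other way and the intervals overlapped: 42.2% (39.5% to 45.0%) and 43.9% (42.2% to 45.5%) with 2 to 4 sites, and 35.3% (31.7% to 39.2%) and 40.2% (36.6% to 43.9%) with 1. Of 10 equal parts of the span, the ninth held fewest member sites (7.68%) and the second most (11.4%). Within 1 kb of the gene end lay 6.11% (5.65% to 6.61%) of member sites and 4.45% (4.29% to 4.62%) of other sites. This share moved with the number of sites per gene. It was 27.3% in members with 1 site, 18.6% with 2 to 4, 5.97% with 5 to 19 and 1.03% with 20 or more. In other genes the 4 values were 22.5%, 17.1%, 7.82% and 1.81%. Within 1 kb of the gene start lay 0.691% of member sites and 0.919% of other sites.

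**Figure D3:**
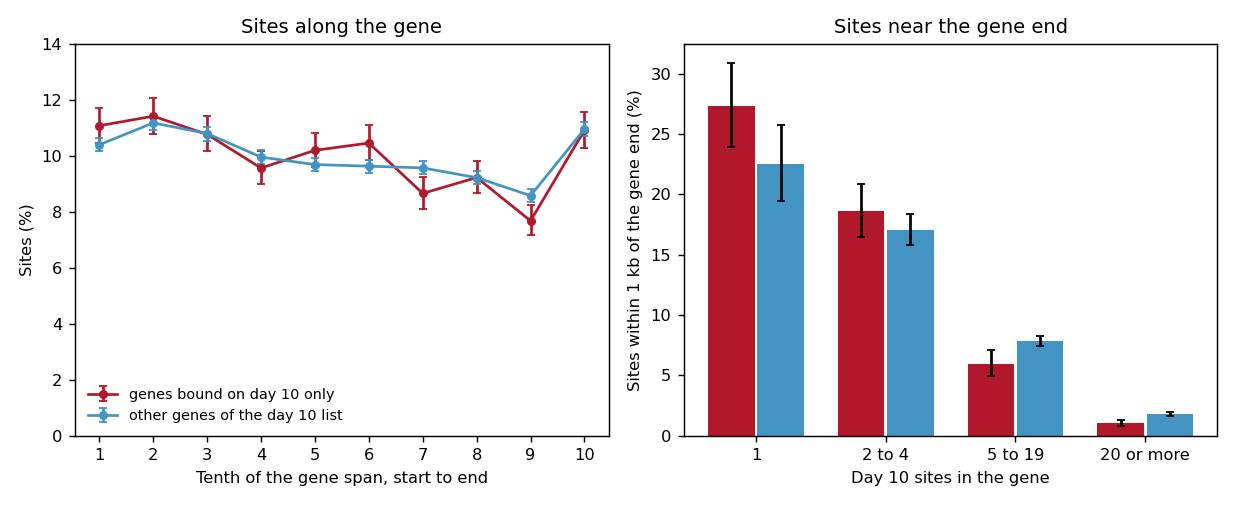
Left, percent of sites (vertical axis) in each of 10 equal parts of the gene span from start to end, for protein-coding genes bound on day 10 only (red) and other genes of the day 10 list (blue). Right, percent of sites within 1 kb of the gene end by number of day 10 sites in the gene. Bars and lines carry exact binomial 95% intervals, and the share near the end is 27.3% in single-site members and 1.03% in members with 20 sites or more.

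In some members with 20 sites or more the sites began far inside the annotated span. Annotated transcript starts were available for 57 members with 20 sites or more, and the first 20% of the span was without a site in 12 of them (21.1%, 11.4% to 33.9%). Among 676 other genes of the same kind it was without a site in 61 (9.02%, 6.97% to 11.4%). In 6 of the 12 the 5′-most site lay within 10 kb behind an annotated start, and in 26 of the 61. The 5′-most of 310 sites in Rbms3 lay 380 kb into the gene and 2.52 kb behind an inner start. In Robo2 it lay 1046 kb into the gene and 9.93 kb behind the innermost of 3 starts. In Epb41l3 it lay 82.8 kb into the gene and 1.69 kb behind an inner start. In the shorter gene Igf2 it lay 7.70 kb into the gene and 2.16 kb behind an inner start.

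The RefSeq sequence (GRCm38.p6) of the inner starts of Rbms3, Robo2 and Epb41l3 is shown, as examples of starts with all sites of the gene downstream. Each runs from 50 bases before to 10 bases after the start, on the transcribed strand, with the first transcribed base in capitals.
Rbms3, chr9:117252473-117252533, minus strand: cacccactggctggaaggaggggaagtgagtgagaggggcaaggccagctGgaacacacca
Robo2, chr16:74411815-74411875, minus strand: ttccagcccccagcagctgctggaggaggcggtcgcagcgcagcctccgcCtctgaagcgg
Epb41l3, chr17:69156694-69156754, plus strand: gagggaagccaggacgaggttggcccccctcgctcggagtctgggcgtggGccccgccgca

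Slc8a1 and Nfia differed from these genes. Their 5′-most sites lay 90.5 kb and 202 kb behind the nearest annotated start, and the first 24.8% and 38.03% of the span had none. In Celf2 and Apob these distances were 230 kb and 16.15 kb, and the first 26.85% and 41.3% of the span had none. The authors removed sites in overlapping genes, and the part of that step in such empty stretches was not tested. Among genes not named by the rule, and chosen here after their values were seen, Pcgf5, a Polycomb protein, and Rarb, a retinoic acid receptor, had their first site 2.12 kb and 3.53 kb behind a start that lay 30.7 kb and 507 kb into the span.

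**Figure D4:**
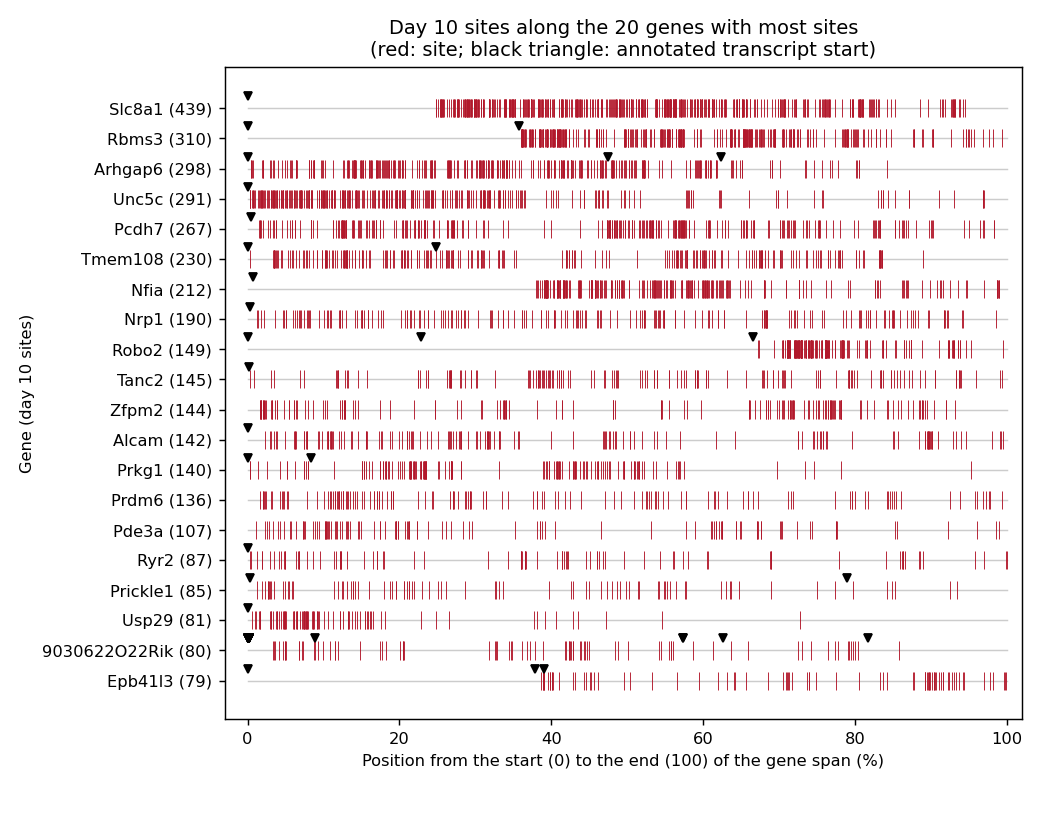
Positions of sites (red lines) along the 20 genes with most sites, from the start (0%) to the end (100%) of the RefSeq span, with annotated transcript starts as black triangles above each gene where the start table lists them. In Rbms3, Robo2 and Epb41l3 all sites lie behind an inner start, and in Slc8a1 and Nfia the first 24.8% and 38.03% of the span are empty.

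Sites of members were less crowded than sites of other genes. A neighbour within 50 nt in the same gene was found for 1077 of 10205 sites, 10.6% (9.96% to 11.2%), against 13.3% (13.1% to 13.6%) of the 64082 other sites. These shares count single-site genes, which can have no neighbour and gave 738 member sites and 849 other sites. With 2 to 4 sites per gene the shares were 11.2% and 14.2%, and with 5 to 19 sites 10.5% and 13.5%. With 20 sites or more they were 11.8% (10.9% to 12.6%) and 13.5% (13.2% to 13.8%). Density was lower in members too, and its part in this difference was not tested. In genes with at least 2 sites, the median distance to the nearest site was 462 nt, against 348 nt. Runs of sites in which neighbours lay within 50 nt numbered 524 with at least 2 sites and 28 with at least 3. The largest held 4 sites within 49 nt, in Nrk, a kinase gene on chromosome X (138993073 to 138993121), and the largest in other genes held 35. The other 4 densest runs held 3 sites each, in Igf2, Apob, Pcdh7 and Prrg1, over 12 to 15 nt. In genes bound on day 3 only and on day 0 only, 3.38% and 4.32% of sites had such a neighbour, where lists were shorter and genes held fewer sites. These shares also count single-site genes, with 375 of 947 and 423 of 1529 sites.

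**Figure D5:**
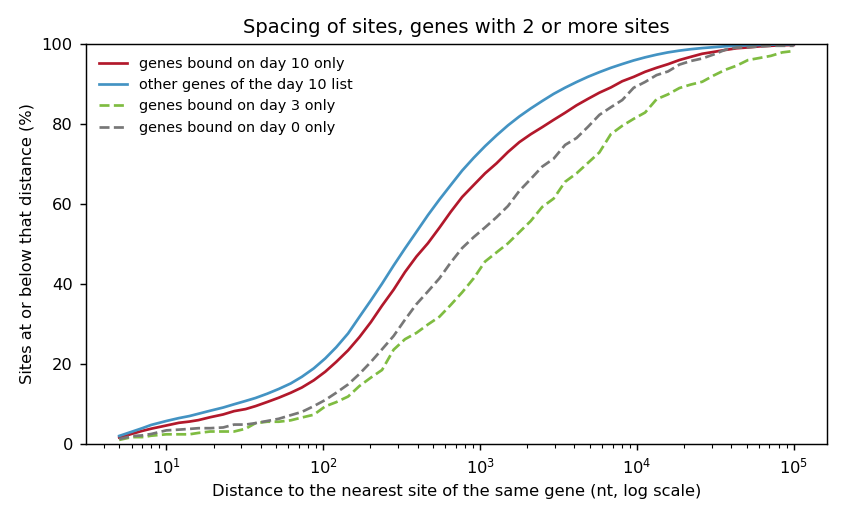
Percent of sites (vertical axis) whose nearest site in the same gene lies at or below a given distance (horizontal axis, log scale), for genes with 2 sites or more. Sites of genes bound on day 10 only (median 462 nt) lie to the right of those of other day 10 genes (348 nt) and to the left of genes bound on day 3 only (1503 nt) or day 0 only (852 nt).

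By chromosome, the share of day 10 genes that were in the set ran between 19.3% on chromosome 12 (48 of 249, 14.6% to 24.7%) and 31.1% on chromosome X (69 of 222, 25.1% to 37.6%), apart from the Y chromosome with none of 5. By sites, members held 24.5% of day 10 sites on chromosome 9, where Rbms3 and Tmem108 lie, and 5.29% on chromosome 14.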

How the data were processed

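The 15 iCLIP2 libraries, 5 per day, were deposited as 1 site list for each day. The authors gave every site a gene and dropped sites where genes overlap, per the file headers. The deposited score is 0 for every site and was not used. The submitters' processing notes name STAR 2.7.11a, UMI-tools 1.1.6, bedtools 2.31.1, SAMtools 1.22.1, FastQC 0.12.1 and MultiQC 1.31 and list GRCm38.p5 and GRCh38.p14 as builds, with no roles. How sites were called and libraries combined is not given in the sources used here. Lists carry no crosslink counts, so depth is unknown and no test was made.

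Positions are site centres, counted from 1. Gene IDs were named after the RefSeq gene (GRCm38.p6) of the same kind, and on the same strand where the table of starts gives one, whose span held at least 80% of their sites. This named 7488 of 7949 IDs, and 1514 of the 1603. Gene starts and ends are the outer ends of these spans, and exons were not analysed here. Intervals are exact binomial 95% intervals from SciPy 1.17.1, with Python 3.11.15, NumPy 2.4.6, pandas 2.3.3 and matplotlib 3.10.9. Naming, position and spacing were tested on simulated data.

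The members, lists and comparisons were all chosen with earlier results of these data known. Named genes are the 20 with most sites, up to 4 per list and 3 per class other than protein-coding. For classes with few sites not all are printed. Also named are the 5 of highest density, the 5 densest runs and the 5 just outside the rule. Results for 1 gene list and 1 non-coding gene are not reported here.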

Additional observations from a re-analysis of the deposited data

How the results depend on the processing

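Of 53 alternative values for 23 results, 40 stayed within the interval, quartiles or range of 1.5 times of the reported value and 13 moved. The set held as many genes when a member with an early site of any gene between its first and last site was left out and when ID versions were kept (1603 genes). The first of these checks could hardly change the count. A single-site member leaves only that position to search, and the authors dropped sites where genes overlap. The set shrank to 865 genes at 2 sites or more and to 329 at 5 or more, while site numbers stayed within 1.5 times. With up to 1 site allowed over both earlier lists it grew to 2387 genes, which counts as stayed. Protein-coding genes were 95.7% at 5 sites or more and 95.9% by sites, against 92.3% of genes. At 5 sites or more the median span was 96.3 kb against 31.8 kb, the median density 13.03 sites per 100 kb against 6.94, 2.34% of sites lay within 1 kb of the gene end, 56.3% in the first 50% of the span, and 11.4% had a neighbour within 50 nt. With each gene counted once, 20.0% lay within 1 kb of the end and 41.1% in the first 50% of the span, because single-site genes then weigh as much as Slc8a1. Neighbours within 20 nt were found for 6.43% of sites and within 200 nt for 28.2%. Within 50 nt of a site in a start region a motif was found for 81.2%, against 41.2% of sites of other genes, so the overlap of intervals at 20 nt was not kept. Member windows were richer in A or T there, and some of them overlap. No share of a gene list moved beyond its interval, but these intervals are wide and few shares could have left them. The share of basement membrane and endoderm genes fell from 48% to 28.6% at 5 sites or more, within its interval of 27.8% to 68.7%. The spread between libraries is unknown, so leaving out a library could not be run. No paired analysis was possible because the lists combine the libraries of a day. Sequence alternatives were run for sites in start regions only.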
